A study of Mus musculus with 8 samples.

Results

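Cell cycle and DNA replication genes were followed in RNA of mouse spleen cells, with each sample hybridised to its own Affymetrix expression array. The set was a fixed list of 38 genes, 12 that act in S phase and 26 that act in mitosis, and its members were all probe sets that the platform annotation gives to exactly 1 listed gene. That rule found 86 of 45101 probe sets, 33 for S phase and 53 for M phase genes, covering 37 of the 38 genes, out of 18193 genes named on the array in this way. Ccnb1 had no such probe set in the annotation used here and was not analysed. Of the 86 probe sets, 80 were bright enough to be tested, at least 1 for each of the 37 genes. The other 6 belonged to Aurka, Mcm6, Nusap1, Top2a and, for a pair of them, Tyms.

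There were 4 samples per group. Wild type was C57Bl/6J and the other group was B6.SB-Yaa/J, all male and 8 weeks old, with whole spleen as the tissue in both. Yaa is a Y chromosome that carries a copied segment of the X chromosome including Tlr7, and it speeds autoimmune disease on susceptible backgrounds. Every sample was 1 spleen from 1 mouse, except Yaa 3, whose RNA pooled 2 spleens. The source label of Yaa 2 speaks of males in the plural, while the series' design counts a single spleen for it. Spleens were teased through nylon mesh and red cells were lysed before RNA was made, so the RNA came from the cells that remained. Whether these genes differ between Yaa and wild type spleens was the comparison.

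A dividing cell copies its DNA in S phase and separates the copies in mitosis. Before S phase the loader Cdc6 helps place the Mcm2 to Mcm7 helicase on replication origins, and cyclin E (Ccne1) with its kinase starts replication. Pcna then clamps the polymerases to DNA, while ribonucleotide reductase (Rrm1, Rrm2) and thymidylate synthase (Tyms) supply nucleotides. In mitosis Cdk1 with cyclins A and B drives the process, Aurora and Polo kinases build the spindle, and the spindle checkpoint holds the anaphase-promoting complex (APC/C) back until chromosomes are attached. S phase genes are classically switched on by E2F factors, and mitotic genes through CCAAT boxes and a cell cycle homology region (CHR). In the adult mouse spleen, dividing cells are known to include erythroid precursors of the red pulp and lymphocytes that have met antigen.

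Promoter sequences are shown to describe the genes, and their part in the array values was not tested. They are RefSeq windows of build GRCm38.p6, each 300 bases long, from 250 bases before a gene's start to 50 after it, and 35 windows matched 33 of the 38 genes by symbol, leaving Aurkb, Ccna2, Kif20a, Mcm4 and Tpx2. Ccnb1 has a window although it has no probe set, and the windows of a gene with a pair of them can overlap, as those of Prc1 do. Capitals mark matches on either strand to CCAAT (the CCAAT box, ATTGG on the other strand), to TTTGAA (CHR, TTCAAA on the other strand) and to an E2F site in the form TTCCCGC or the form TTGGCGC or the form TTCGCGC or the form TTGCCGC. The E2F letters can overlap one another on opposite strands, and an E2F match can run into a CCAAT match.

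Among the mitotic promoters, both CCAAT and CHR are in those of Ccnb2 (chr9:70421505-70421804, minus strand), Ube2c (chr2:164769679-164769978, plus strand) and Plk1 (chr7:122159185-122159484, plus strand). Cdk1 (chr10:69352863-69353162, minus strand) has these and E2F matches too. Mcm6 (chr1:128359656-128359955, minus strand) and Mcm7 (chr5:138171834-138172133, minus strand) are S phase promoters with E2F matches and no CHR. Birc5 (chr11:117848987-117849286, plus strand) is shown as a mitotic gene with no match to any of these letters.
Ccnb2: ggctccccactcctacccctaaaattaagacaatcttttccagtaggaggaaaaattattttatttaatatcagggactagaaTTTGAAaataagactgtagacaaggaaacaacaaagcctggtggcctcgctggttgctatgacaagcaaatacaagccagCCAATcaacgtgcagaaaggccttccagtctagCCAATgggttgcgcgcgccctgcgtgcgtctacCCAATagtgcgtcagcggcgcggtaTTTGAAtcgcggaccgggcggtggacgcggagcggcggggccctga
Ube2c: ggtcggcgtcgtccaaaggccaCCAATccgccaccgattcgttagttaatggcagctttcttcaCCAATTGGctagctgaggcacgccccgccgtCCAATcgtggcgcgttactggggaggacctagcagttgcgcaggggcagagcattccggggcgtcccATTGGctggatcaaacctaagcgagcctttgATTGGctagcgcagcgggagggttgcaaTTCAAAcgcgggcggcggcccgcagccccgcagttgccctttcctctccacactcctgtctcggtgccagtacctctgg
Plk1: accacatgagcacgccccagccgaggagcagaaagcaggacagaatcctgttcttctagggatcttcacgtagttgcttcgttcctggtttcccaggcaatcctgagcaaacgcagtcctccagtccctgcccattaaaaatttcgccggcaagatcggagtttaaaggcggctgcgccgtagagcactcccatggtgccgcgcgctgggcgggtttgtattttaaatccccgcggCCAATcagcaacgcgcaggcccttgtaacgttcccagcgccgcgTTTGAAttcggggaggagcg
Cdk1: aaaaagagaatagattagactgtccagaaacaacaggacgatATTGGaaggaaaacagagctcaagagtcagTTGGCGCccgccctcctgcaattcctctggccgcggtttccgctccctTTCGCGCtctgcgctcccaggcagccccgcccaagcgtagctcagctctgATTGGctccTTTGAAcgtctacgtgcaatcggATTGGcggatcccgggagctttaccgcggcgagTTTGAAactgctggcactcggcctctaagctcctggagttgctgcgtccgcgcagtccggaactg
Mcm6: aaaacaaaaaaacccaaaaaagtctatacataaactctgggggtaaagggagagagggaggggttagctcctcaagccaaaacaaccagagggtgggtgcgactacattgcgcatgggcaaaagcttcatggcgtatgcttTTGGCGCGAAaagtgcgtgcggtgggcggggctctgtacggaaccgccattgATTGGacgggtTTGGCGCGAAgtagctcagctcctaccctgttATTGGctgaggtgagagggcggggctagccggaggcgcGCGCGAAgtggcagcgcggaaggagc
Mcm7: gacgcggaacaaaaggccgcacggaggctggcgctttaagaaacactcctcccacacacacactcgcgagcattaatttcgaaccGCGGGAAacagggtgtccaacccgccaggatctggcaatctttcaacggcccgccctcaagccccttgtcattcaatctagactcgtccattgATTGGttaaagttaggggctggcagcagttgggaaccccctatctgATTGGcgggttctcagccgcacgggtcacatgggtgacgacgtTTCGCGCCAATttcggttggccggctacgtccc
Birc5: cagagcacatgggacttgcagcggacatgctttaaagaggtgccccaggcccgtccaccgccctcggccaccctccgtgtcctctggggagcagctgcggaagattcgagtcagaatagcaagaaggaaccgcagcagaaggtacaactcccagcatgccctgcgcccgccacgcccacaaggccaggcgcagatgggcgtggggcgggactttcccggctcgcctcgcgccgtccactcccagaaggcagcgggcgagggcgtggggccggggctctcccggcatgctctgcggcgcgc

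The CHR letters were in 16 of 23 M phase windows (69.6%), in 1 of 12 S phase windows (8.33%) and in 17.9% of all 32851 windows of the table. The E2F letters were in 8 of 12 S phase windows (66.7%), in 4 of 23 M phase windows (17.4%) and in 9.57% of all windows. CCAAT was common to both classes, in 9 of 12 S phase and 20 of 23 M phase windows (87.0%) against 37.4% of all. All 16 M phase windows with CHR also held CCAAT, a pair of motifs found together in 6.95% of all windows. These are matches of letters and not measured binding, and a window without a match says only that these letters are not in it.

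**Figure D1:**
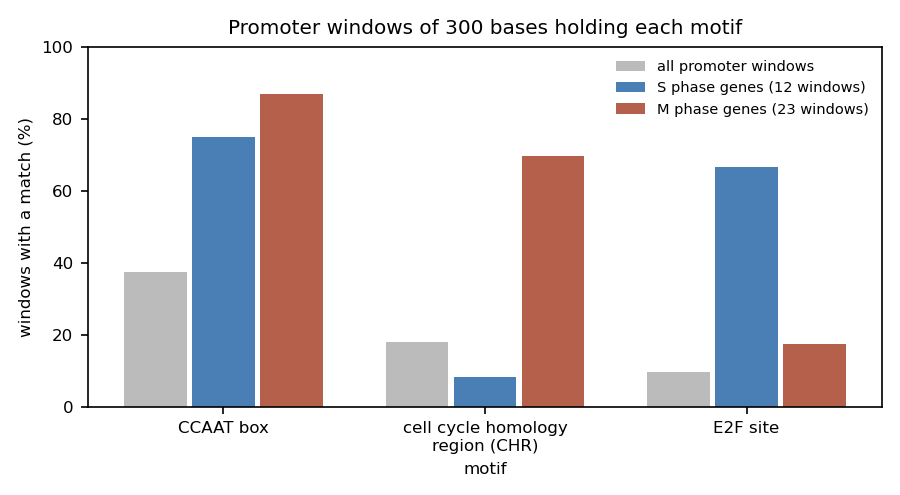
Share of 300-base promoter windows (vertical axis, percent) that hold a CCAAT box, a CHR or an E2F site, for all windows, the 12 windows of S phase genes and the 23 of M phase genes. CHR letters were in 69.6% of M phase windows and E2F letters in 66.7% of S phase windows.

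Before the values, the arrays themselves need a description, since 2 of them stood apart. Values here are log2(signal + 16) after quantile normalization, because the trimmed mean signal ran from 107 to 193 between arrays as deposited. A gene is represented by its brightest tested probe set. Markers of B and T cells, which make up much of a spleen, were present in 7 arrays and low in Yaa 3: the B cell list averaged 5.53 there and 10.16 to 10.87 elsewhere, and the T cell list 5.35 against 8.25 to 9.27. Yaa 3 thus went against its spleen label for these markers, and its germinal centre B cell and plasma cell means were also the lowest. Other cell type markers were not low in it. Splenic macrophage markers averaged 10.29 in Yaa 3 and 8.86 to 9.20 elsewhere. Erythroid markers averaged 12.17 in Yaa 3 and 11.80 to 12.15 in wild type. Yaa 2 stood apart in the genes reported here. Results are therefore given with and without each of these arrays. In RNA of mixed cells, fewer dividing cells and less RNA per dividing cell cannot be told apart.

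No difference between the strains passed the test for any of the 37 genes. Their main feature was that Yaa 2 had the lowest signal of the 8 arrays for all 37. M phase genes averaged 10.93, 10.57, 10.36 and 10.40 in wild type 1 to 4 and 10.52, 8.90, 10.94 and 10.52 in Yaa 1 to 4. Yaa 2 was far below the other 7 arrays, which lay between 10.36 and 10.94, and the remaining Yaa arrays lay within the wild-type range or, for Yaa 3, just above it. S phase genes averaged 11.37, 11.10, 11.04 and 11.10 in wild type 1 to 4 and 11.04, 10.13, 11.67 and 11.25 in Yaa 1 to 4. Yaa 2 was again lowest, Yaa 3 was highest, and the groups overlapped. Set against the wild-type mean, Yaa 2 was 3.17-fold lower for M phase genes and 2.04-fold lower for S phase genes on this scale.

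Among the 80 tested probe sets, 79 were lowest in Yaa 2, where 26.6% of all tested probe sets were. The exception was a dim Bub1b probe set (1447362_at), lowest in wild type 3. Yaa 2 lay at least 1 log2 unit below the median of the other arrays for 31 of 37 genes, all 25 of M phase and 6 of 12 of S phase, against 7.16% of all tested probe sets. Its place as the lowest array for all 37 genes held with the values as deposited, with median-centred arrays and with other added constants. As deposited, Yaa 2 was -1.0 for S phase and -1.64 for M phase genes relative to the wild-type mean, while the median of all tested probe sets differed by 0.09.

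**Figure D2:**
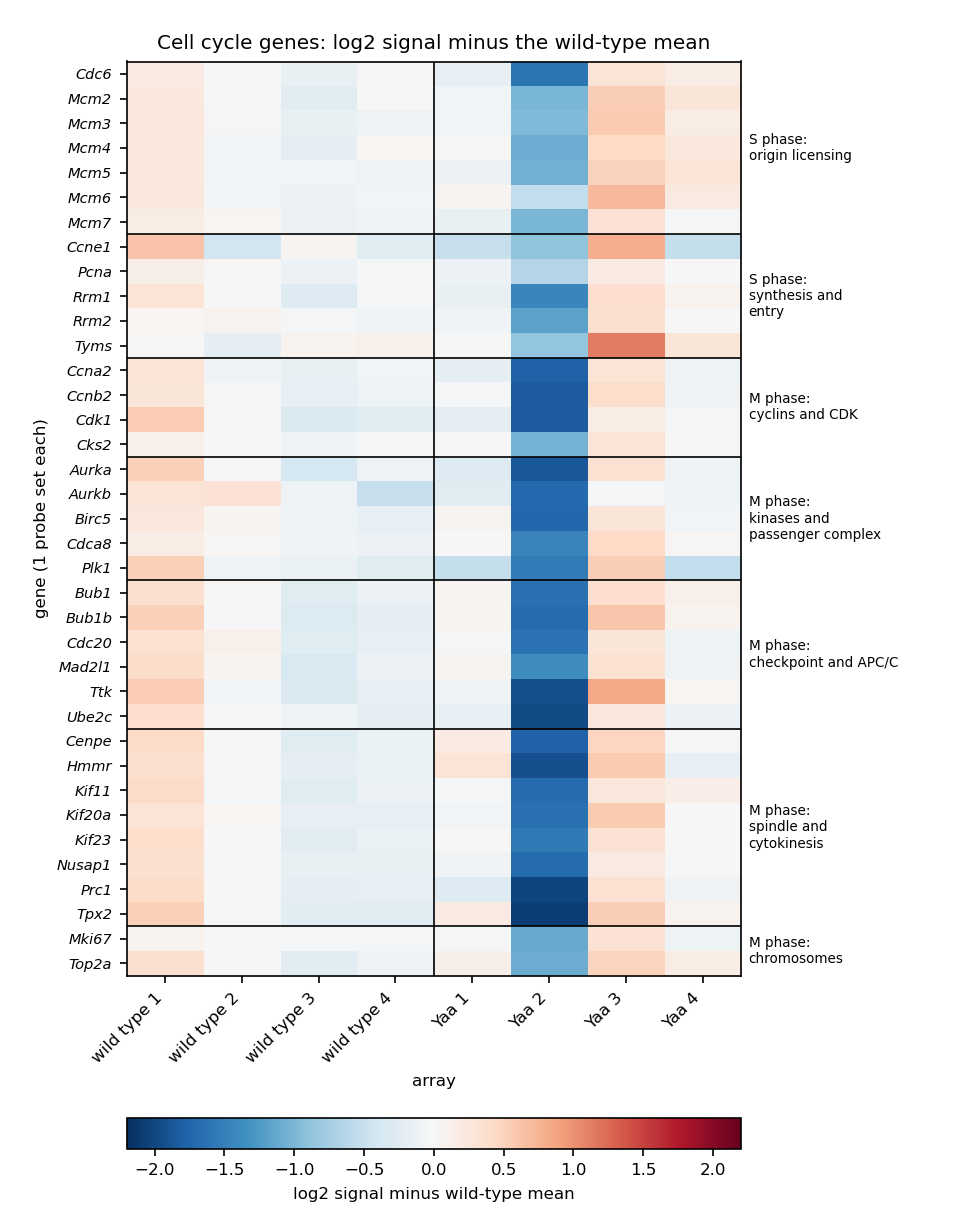
Log2 signal minus the wild-type mean (colour, blue lower and red higher) for 37 genes (rows, grouped by role) in 8 arrays (columns). Yaa 2 is the lowest array in every row, and the M phase rows are lower there than most S phase rows.

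Among the S phase genes, those of origin licensing had Yaa minus wild type differences from -0.33 to 0.10 (log2). Mcm7, a subunit of the replicative helicase, had the highest mean signal and the smallest p of this role, at 12.92, 12.80, 12.63 and 12.68 in wild type 1 to 4 and 12.60, 11.75, 13.08 and 12.72 in Yaa 1 to 4. Only Yaa 2 was below 12 and the groups overlapped. The difference was -0.22 ± 0.24 (SE; limma adjusted p = 0.997). By their brightest probe sets, most helicase subunits lay close together in Yaa 2. There Mcm2 was -1.0, Mcm3 -0.97, Mcm4 -1.09, Mcm5 -1.05 and Mcm7 -1.01 relative to the wild-type mean. Mcm6 was the least low of them at -0.55. Other tested probe sets of these genes spread more widely, as with Mcm2 at -1.37, Mcm6 at -0.875 and Mcm3 from -1.20 to -0.13. Cdc6, the helicase loader, was the lowest at -1.62.

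Genes that start or supply DNA synthesis differed from -0.29 to 0.13. Pcna, the sliding clamp, was at 13.56, 13.46, 13.31 and 13.42 in wild type 1 to 4 and 13.31, 12.79, 13.61 and 13.42 in Yaa 1 to 4. The other 7 arrays lay between 13.31 and 13.61, above Yaa 2. Its difference was -0.15 ± 0.16 (SE; limma adjusted p = 0.997). In Yaa 2, the reductase subunits Rrm1 and Rrm2 were -1.44 and -1.19 relative to the wild-type mean, cyclin E1 (Ccne1) was -0.88 and Tyms -0.86. The other tested probe sets of Rrm2 (-1.81 and -1.69) and Ccne1 (-1.40) were lower there. Those of Rrm1 (-1.39 and -0.56) and Tyms (-0.66) were not. Tyms had its highest value in Yaa 3, 1.14 above the wild-type mean. Tyms and Mcm6 were the 2 members whose means were higher in Yaa, by 0.13 ± 0.36 (SE) and 0.10 ± 0.24 (SE), and both turned negative with the values as deposited (-0.07 and -0.04) or without Yaa 3 (-0.20 and -0.10).

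Among the mitotic cyclins and their kinase, differences ran from -0.47 to -0.18. Cks2, a small subunit that binds Cdk1, had the highest mean signal, at 12.46, 12.33, 12.26 and 12.32 in wild type 1 to 4 and 12.35, 11.31, 12.62 and 12.37 in Yaa 1 to 4. Yaa 2 was the only array under 12. Ccna2, cyclin A2, had the smallest p of the role, at 12.24, 11.85, 11.77 and 11.87 in wild type 1 to 4 and 11.73, 10.16, 12.24 and 11.84 in Yaa 1 to 4. The other 7 arrays lay between 11.73 and 12.24, above Yaa 2. Cdk1, the kinase that drives entry into mitosis, was at 11.19, 10.63, 10.31 and 10.35 in wild type 1 to 4 and 10.43, 8.80, 10.78 and 10.59 in Yaa 1 to 4. Wild type 1 was the highest array for Cdk1 and Yaa 2 the lowest. The differences were -0.18 ± 0.25 (SE) for Cks2, -0.44 ± 0.39 (SE) for Ccna2 and -0.47 ± 0.42 (SE) for Cdk1 (limma adjusted p = 0.997 each). Ccnb2, cyclin B2, was -1.84 in Yaa 2 relative to the wild-type mean.

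The mitotic kinases and the chromosomal passenger complex, which corrects faulty spindle attachments, differed from -0.54 to -0.24. Aurkb, the kinase of that complex, had the largest difference and the smallest p of all 37 genes. It was at 9.70, 9.73, 9.29 and 8.89 in wild type 1 to 4 and 9.13, 7.68, 9.36 and 9.30 in Yaa 1 to 4. Its wild-type values spread widely, from 8.89 to 9.73, and 3 Yaa arrays lay inside that range. The difference was -0.54 ± 0.38 (SE; limma adjusted p = 0.997), and its other probe set gave -0.24 ± 0.45 (SE). Birc5, or survivin, the subunit that recruits the complex, was at 11.97, 11.78, 11.61 and 11.55 in wild type 1 to 4 and 11.78, 10, 11.99 and 11.67 in Yaa 1 to 4. Plk1, the Polo kinase, was at 9.78, 9.14, 9.12 and 9.0 in wild type 1 to 4 and 8.74, 7.73, 9.81 and 8.72 in Yaa 1 to 4. Plk1 was lower than all wild-type arrays in Yaa 1, Yaa 2 and Yaa 4 and above them in Yaa 3. The differences were -0.37 ± 0.39 (SE) for Birc5 and -0.51 ± 0.39 (SE) for Plk1 (limma adjusted p = 0.997 each). In Yaa 2 the kinase Aurka was -1.86 and the passenger subunit Cdca8 -1.46 relative to the wild-type mean.

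Spindle checkpoint and APC/C genes differed from -0.50 to -0.24. Ube2c, the ubiquitin-conjugating enzyme of APC/C, was at 12.75, 12.32, 12.26 and 12.16 in wild type 1 to 4 and 12.20, 10.41, 12.63 and 12.25 in Yaa 1 to 4. Yaa 2 was below the lowest other array by more than the spread of the remaining 7. The difference was -0.50 ± 0.43 (SE; limma adjusted p = 0.997). The checkpoint kinases Ttk and Bub1 were -1.94 and -1.65 in Yaa 2 relative to the wild-type mean, the checkpoint proteins Bub1b and Mad2l1 -1.70 and -1.37, and the APC/C activator Cdc20 -1.62.

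Genes of the spindle and of cytokinesis were among the lowest in Yaa 2. Prc1, which bundles microtubules between the separating chromosomes, was at 10.18, 9.77, 9.55 and 9.58 in wild type 1 to 4 and 9.49, 7.75, 10.10 and 9.69 in Yaa 1 to 4. Nusap1, a microtubule-stabilising protein, was at 11.69, 11.31, 11.19 and 11.19 in wild type 1 to 4 and 11.27, 9.66, 11.54 and 11.35 in Yaa 1 to 4. For both, the other 7 arrays lay well above Yaa 2 and the groups overlapped. The differences were -0.51 ± 0.45 (SE) for Prc1 and -0.39 ± 0.38 (SE) for Nusap1 (limma adjusted p = 0.997 each). Tpx2, which activates Aurka on the spindle, was the lowest member in Yaa 2, 4.19-fold below its wild-type mean. Hmmr and the kinetochore motor Cenpe were -1.94 and -1.78 there on the log2 scale, and the kinesins Kif11, Kif20a and Kif23 were -1.68, -1.63 and -1.55.

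Mki67, the standard proliferation marker that coats mitotic chromosomes, was at 13.09, 13, 13 and 12.97 in wild type 1 to 4 and 12.99, 11.91, 13.33 and 12.91 in Yaa 1 to 4. Wild-type arrays agreed closely, with an SD of 0.05, and Yaa 2 was the only array under 12. The difference was -0.23 ± 0.26 (SE; limma adjusted p = 0.997). Top2a, which untangles DNA before chromosomes separate, was -1.10 in Yaa 2 relative to the wild-type mean and differed between groups by -0.08 ± 0.32 (SE). Mki67, Top2a and Cks2 were the M phase genes least low in Yaa 2, at -1.11, -1.10 and -1.03.

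Yaa 2 was further below wild type for M phase than for S phase genes. The mean of M phase genes less that of S phase genes was -0.44, -0.53, -0.68 and -0.71 in wild type 1 to 4 and -0.52, -1.22, -0.73 and -0.72 in Yaa 1 to 4. In the other 7 arrays it lay between -0.73 and -0.44, so M phase genes were lower relative to S phase genes in Yaa 2 than in any other array. Gene by gene, Yaa 2 stood at -2.07 to -1.03 against the wild-type mean for M phase genes and at -1.62 to -0.55 for S phase genes, so the ranges overlapped. Between groups the mean was 10.22 ± 0.90 (SD, n = 4) in Yaa against 10.57 ± 0.26 (SD, n = 4) in the wild-type spleens for M phase genes, and 11.02 ± 0.65 (SD, n = 4) in Yaa against 11.15 ± 0.15 (SD, n = 4) in the wild-type spleens for S phase genes.

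**Figure D3:**
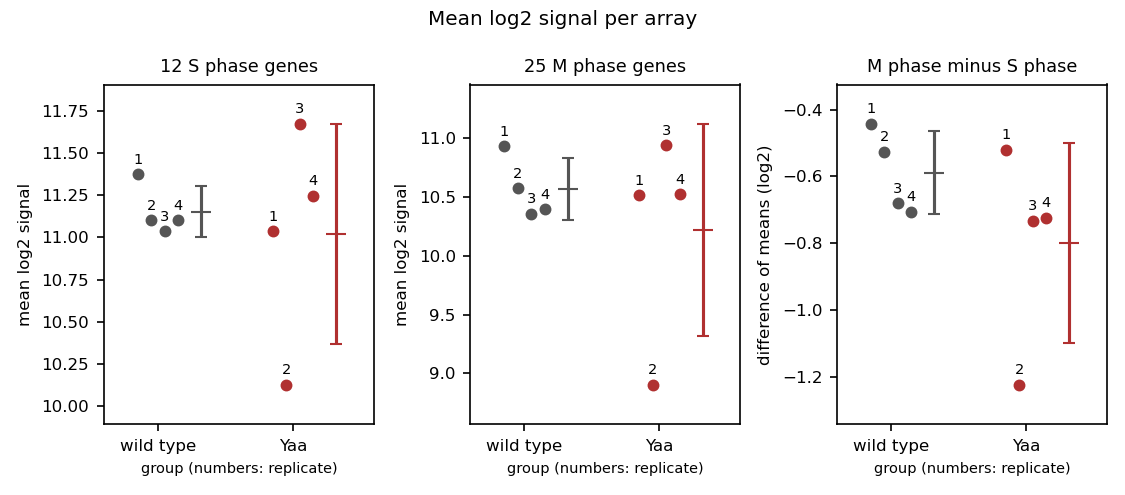
Mean log2 signal of 12 S phase genes and 25 M phase genes, and their difference (vertical axes, log2), in each array. Points are arrays numbered by replicate, and bars are the group mean and SD (n = 4). Yaa 2 is lowest in all 3 panels.

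Against this spread, 0 of 80 tested probe sets passed limma's test, where 1 of 22518 did (0.00444%), and the smallest adjusted p of the set was 0.806. At an unadjusted p under 0.05 there was 1 of 80, while 4.73% of all probe sets reached that level. None of the 80 had groups that did not overlap, against 4.1% of all. The median difference of the 37 genes was -0.28, that of the S phase genes -0.13 and that of the M phase genes -0.32, beside -0.01 over all tested probe sets. The means of 35 genes were lower in Yaa, 25 of 25 for M phase and 10 of 12 for S phase, where 52.4% of all probe sets were lower. That direction rested on Yaa 2. Without that array 30 of 37 were higher in Yaa and 7 lower, against 47.8% of all probe sets lower, and the median was 0.10. Without both Yaa 2 and Yaa 3, 16 were higher and 21 lower (51.5% of all probe sets lower), and with limma array weights 12 were higher and 25 lower (52.1%).

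The intervals of these differences were wide on 8 arrays. For Ube2c the 95% interval of the difference ran from -1.46 to 0.46, and for Mcm7 from -0.77 to 0.34, and differences within these ranges are not excluded. Without Yaa 2 the SE of Ube2c was 0.16 in place of 0.43 and its difference was -0.01. In that fit limma called 0 of 80 as well (0.138% of all), with 2 at an unadjusted p under 0.05 (9.13% of all probe sets). Weighting arrays by their agreement in limma gave 0.22 to both Yaa 2 and Yaa 3, and it then called 0 of 80 with 0 at an unadjusted p under 0.05, against 0.635% and 11.3% of all probe sets. Without Yaa 3 all 37 means were lower in Yaa and the M and S phase differences were -0.58 and -0.35, against 50.4% of all probe sets lower. There 0 of 80 were called (0.00444% of all) and 4 were at an unadjusted p under 0.05 (6.93% of all). Without both arrays the M and S phase differences were -0.05 and -0.01, with 0 of 80 called (0.457% of all) and 2 at an unadjusted p under 0.05 (8.83% of all).

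**Figure D4:**
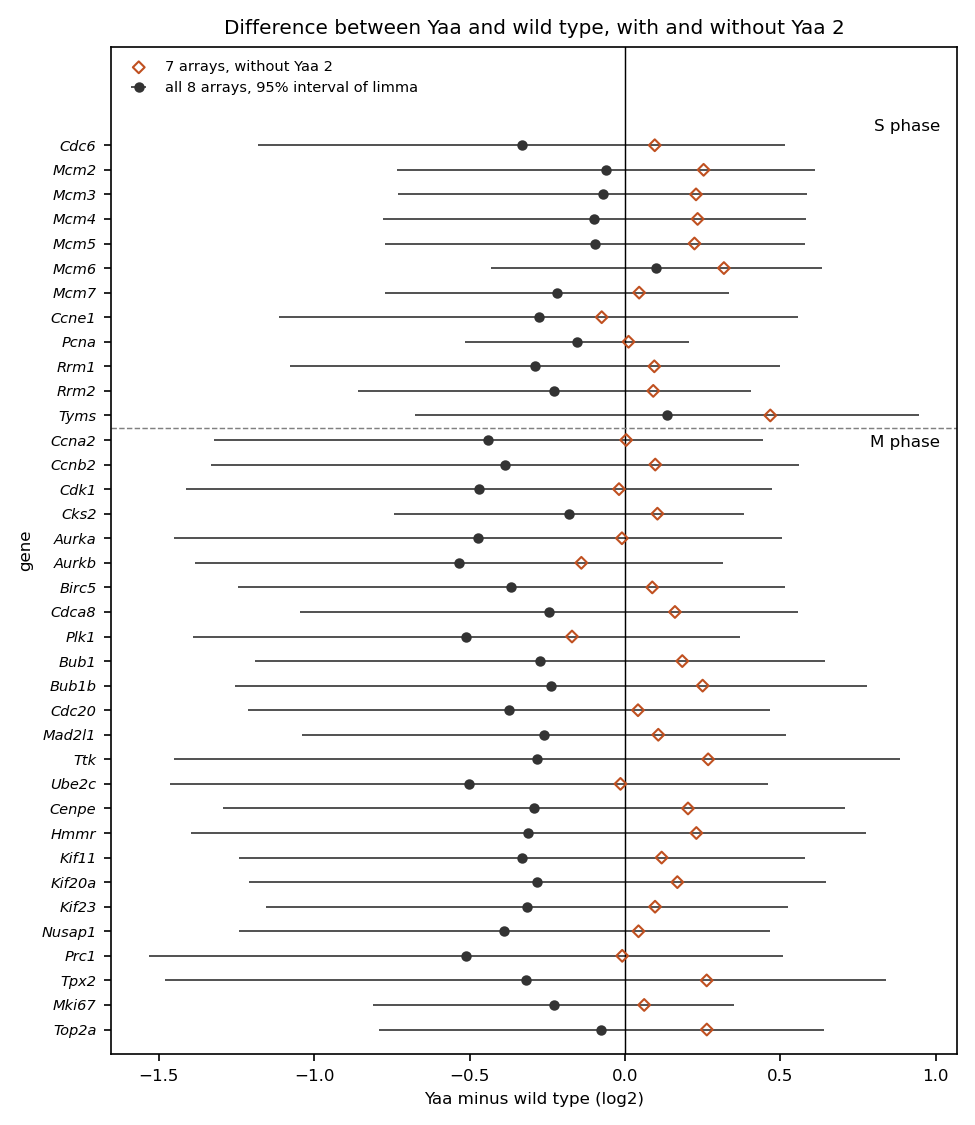
Difference between Yaa and wild type (horizontal axis, log2) for 37 genes (rows), from limma on 8 arrays with its 95% interval (black) and from 7 arrays without Yaa 2 (open diamonds). Every interval includes 0, and 30 of 37 diamonds lie above 0. Without Yaa 3 as well, 16 of 37 differences were above 0 on this quantile-normalized scale.

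The single probe set at an unadjusted p under 0.05 was the dimmest of 3 for Cdc20 (1439394_x_at), which was lower in Yaa, as 1.76% of all probe sets were at that level. It is named with its values in view. It was at 7.21, 6.78, 6.77 and 6.86 in wild type 1 to 4 and 6.80, 4.70, 4.95 and 5.46 in Yaa 1 to 4. Yaa 1 lay within the wild-type range and Yaa 2, Yaa 3 and Yaa 4 below it. Its difference was -1.43 ± 0.41 (SE; limma adjusted p = 0.806). The other Cdc20 probe sets gave -0.38 ± 0.45 and -0.37 ± 0.37 (SE), and in both of them Yaa 3 and Yaa 4 were inside or above the wild-type range. Affymetrix marks a probe set whose probes can bind other transcripts with x, which holds for this one and for those that stand for Mcm5, Ccne1, Rrm2, Cdc20 and Aurkb. Across the 25 genes with several tested probe sets, 7 had differences of both signs, Hmmr, Kif23, Mcm3, Mcm5, Mcm6, Rrm1 and Ttk, none at an unadjusted p under 0.05.

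Yaa 3 was at the other end. It was the highest array for 12 of 12 S phase genes and 14 of 25 M phase genes, against 30.8% of all tested probe sets, and wild type 1 was highest for 10 of the other M phase genes, against 10.4%. This place of Yaa 3 depended on the scaling. With median-centred arrays it was highest for 7 S phase and 2 M phase genes, and with the values as deposited for 2 and 0, where the median of all probe sets in Yaa 3 differed from wild type by -0.49. Within the wild-type group, wild type 1 was the highest array for 34 of 37 genes, 24 of 25 of M phase and 10 of 12 of S phase, against 34.4% of all probe sets.

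Other genes of the cell cycle, in lists chosen with earlier results of these data known, were also low in Yaa 2. Of 40 further replication genes 38 were tested, and all 38 were lowest in Yaa 2, against 26.6% of all tested probe sets. Their mean was 9.98, 9.69, 9.48 and 9.58 in wild type 1 to 4 and 9.60, 8.57, 10.16 and 9.74 in Yaa 1 to 4. limma called 0 of 38, beside 0.00444% of the 22518 tested. Unadjusted p values under 0.05 numbered 0 of 38, a level that 4.73% of the 22518 reached. The median difference was -0.15. The smallest p values were those of Pold1, a subunit of DNA polymerase delta (-0.31 ± 0.16, SE), Gins3, of the helicase complex (-0.42 ± 0.37, SE), Prim1, the primase (-0.36 ± 0.33, SE), and Rfc2, of the clamp loader (-0.20 ± 0.19, SE).

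Of 40 further mitotic genes 38 were tested, all 38 again lowest in Yaa 2, against 26.6% of all tested probe sets. Their mean was 10.29, 9.97, 9.77 and 9.83 in wild type 1 to 4 and 9.97, 8.44, 10.36 and 9.90 in Yaa 1 to 4. limma called 0 of 38 on the 8 arrays, beside 0.00444% of the 22518 tested. Unadjusted p values under 0.05 again numbered 0 of 38, beside 4.73% of the 22518. The median difference was -0.30. Ndc80 and Nuf2, of the kinetochore, differed by -0.68 ± 0.37 (SE) and -0.63 ± 0.40 (SE), and the kinesin Kif22 by -0.45 ± 0.29 (SE). Pttg1 was 1 of 2 genes of this list whose mean was higher in Yaa. It encodes securin, which holds back the protease that cuts sister chromatids apart, and its difference was 0.54 ± 0.26 (SE; limma adjusted p = 0.997).

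Pttg1 (1438390_s_at) was at 11.59, 11.57, 11.73 and 11.59 in wild type 1 to 4 and 12.25, 11.30, 12.68 and 12.38 in Yaa 1 to 4. Yaa 1, Yaa 3 and Yaa 4 lay above all wild-type arrays and Yaa 2 below them. A second probe set (1424105_a_at) was at 9.30, 9.30, 9.28 and 9.07 in wild type 1 to 4 and 10.43, 9.01, 10.53 and 10.44 in Yaa 1 to 4, with the same arrangement. The dimmest (1419620_at) differed by 0.64 ± 0.21 (SE). Without Yaa 2, limma called the first, at 0.82 ± 0.11 (SE; limma adjusted p = 0.0359), and the second, at 1.23 ± 0.10 (SE; limma adjusted p = 0.00593), where it called 0.138% of all probe sets. It did not call the dimmest, at 0.82 (limma adjusted p = 0.171). Array weights gave adjusted p = 0.0375 and 0.0127 for the first and second. No other gene of the cell cycle lists was called in either fit. Yaa 2 was left out with its low values in view, and for the first and second it was the only Yaa array below wild type. The calls without it are thus no independent support for a difference. Leaving out Yaa 1, Yaa 3 or Yaa 4 alone gave limma adjusted p = 0.9875, 0.7164 and 0.9825 for the first. For the second they were 0.9875, 0.7148 and 0.9825.

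The regulators of the cycle were a mixed list. Of 28 tested, 22 were lowest in Yaa 2, against 26.6% of all tested probe sets. The mean of the list was 8.0 in Yaa 2 and 8.82 to 9.28 elsewhere. limma called 0 of 28, beside 0.00444% of the 22518 tested, and the median difference was -0.13. Unadjusted p values under 0.05 numbered 0 of 28, beside 4.73% of the 22518. The S phase activator E2f2 was at 10.92, 10.68, 10.62 and 10.62 in wild type 1 to 4 and 10.70, 9.03, 11.25 and 10.65 in Yaa 1 to 4, and cyclin D3 (Ccnd3) at 11.29, 10.95, 10.86 and 10.88 in wild type 1 to 4 and 11.02, 9.58, 11.53 and 11.06 in Yaa 1 to 4, both lowest in Yaa 2. Cyclin D2 (Ccnd2) had its highest value in Yaa 2, at 10.15, and its lowest in Yaa 3, at 8.69. These were singled out with their values in view. The smallest p values were those of the pocket protein gene Rbl1 (-0.49 ± 0.30, SE), the E2F partner Tfdp2 (-0.45 ± 0.35, SE), the phosphatase Cdc25b (-0.44 ± 0.36, SE) and Rbl2 (-0.12 ± 0.12, SE).

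Of 14 CDK inhibitors and antiproliferative genes 11 were tested, and 2 of them were lowest in Yaa 2, against 26.6% of all tested probe sets. Both encode CDK inhibitors and are named with their values in view. Cdkn2c was at 10.38, 9.98, 9.96 and 9.92 in wild type 1 to 4 and 10.09, 8.29, 10.36 and 10.05 in Yaa 1 to 4. Cdkn2d was at 11.01, 11.10, 11.07 and 11 in wild type 1 to 4 and 10.73, 9.86, 10.97 and 10.81 in Yaa 1 to 4. In both, Yaa 2 was well below the other 7 arrays. Of the CDK inhibitor genes Cdkn1a and Cdkn1b, also tested, Cdkn1a was highest in Yaa 2. Cdkn1b was at 9.302 there, close to its lowest value, 9.293 in wild type 4. Cdkn1a, which encodes the CDK inhibitor p21, had the smallest p of the list (1424638_at), at 6.60, 7.05, 7.12 and 7.06 in wild type 1 to 4 and 7.71, 8.23, 8.17 and 7.46 in Yaa 1 to 4. All 4 Yaa arrays lay above all 4 wild-type arrays, a lack of overlap seen in 4.1% of all tested probe sets. The difference was 0.93 ± 0.21 (SE; limma adjusted p = 0.553), and a second probe set (1421679_a_at), with groups that did not overlap either, gave 0.79 ± 0.19 (SE; limma adjusted p = 0.625). Neither passed with array weights (limma adjusted p = 0.0854 and 0.111) or without Yaa 2 (0.322 and 0.274). Of the other genes named by p, Cdkn2d differed by -0.45 ± 0.22 (SE), Tob1 by 0.39 ± 0.21 (SE) and Ccng1, a p53 target, by 0.15 ± 0.13 (SE). limma called 0 of 11 (0.00444% of all probe sets), with 1, Cdkn1a, at an unadjusted p under 0.05 (4.73% of all probe sets).

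Erythroid markers had their lowest values in the same array as the cell cycle genes. All 25 tested of 28 listed were lowest in Yaa 2, against 26.6% of all tested probe sets. Their mean was 12.15, 11.95, 11.83 and 11.80 in wild type 1 to 4 and 11.93, 10.24, 12.17 and 11.90 in Yaa 1 to 4. Their summed signal was 43693 in Yaa 2, 117585 to 141601 in the other Yaa arrays and 110671 to 136903 in wild type. Yaa 2 was -1.69 relative to the wild-type mean for these markers, beside -1.66 for M phase and -1.03 for S phase genes. Wild type 1 was also the highest wild-type array for the erythroid mean. The other 3 listed were not analysed here. The part of erythroid cells in the cell cycle values was not tested.

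Lymphocyte markers did not follow the cell cycle genes. In Yaa 2 the B cell list of 11 tested genes averaged 10.87 and the T cell list of 11 averaged 9.27, the highest of the 8 arrays for both. In Yaa 3 all 11 of each list were lowest, as were 5929 of all 22518 tested probe sets. Summed signals there were 523 and 568 against 16351 to 28304 and 5972 to 13394 elsewhere. The S phase mean in Yaa 3 was the highest of the 8 under quantile normalization. Germinal centre B cell markers, of which 3 of 7 were tested, averaged 7.47 in Yaa 2 and 5.71 to 6.98 elsewhere. Plasma cell markers averaged 9.40 in Yaa 2 and 6.63 in Yaa 3, with wild type between 8.56 and 8.97.

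Myeloid lists had orders of their own. Granulocyte precursor markers, of which 6 of 8 were tested, averaged 6.89, 6.52, 6.39 and 6.29 in wild type 1 to 4 and 8.44, 6.27, 7.62 and 7.64 in Yaa 1 to 4, highest in Yaa 1 and lowest in Yaa 2. Mature neutrophil markers averaged 9.01, 8.56, 8.29 and 8.38 in wild type 1 to 4 and 10.98, 8.82, 10.54 and 9.85 in Yaa 1 to 4, and Yaa 1, Yaa 3 and Yaa 4 lay above wild type. Yaa 1 and Yaa 4 had M phase means of 10.52 each, inside the wild-type range of 10.36 to 10.93. Splenic macrophage markers averaged 10.29 in Yaa 3 and 8.86 to 9.20 in the other arrays, NK cell markers 9.20 and 7.59 to 8.31, and megakaryocyte markers 6.78 to 6.80 in Yaa 1, Yaa 2 and Yaa 4 and 7.23 to 7.37 in the other arrays. The part of these cells in the cell cycle values was not tested.

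**Figure D5:**
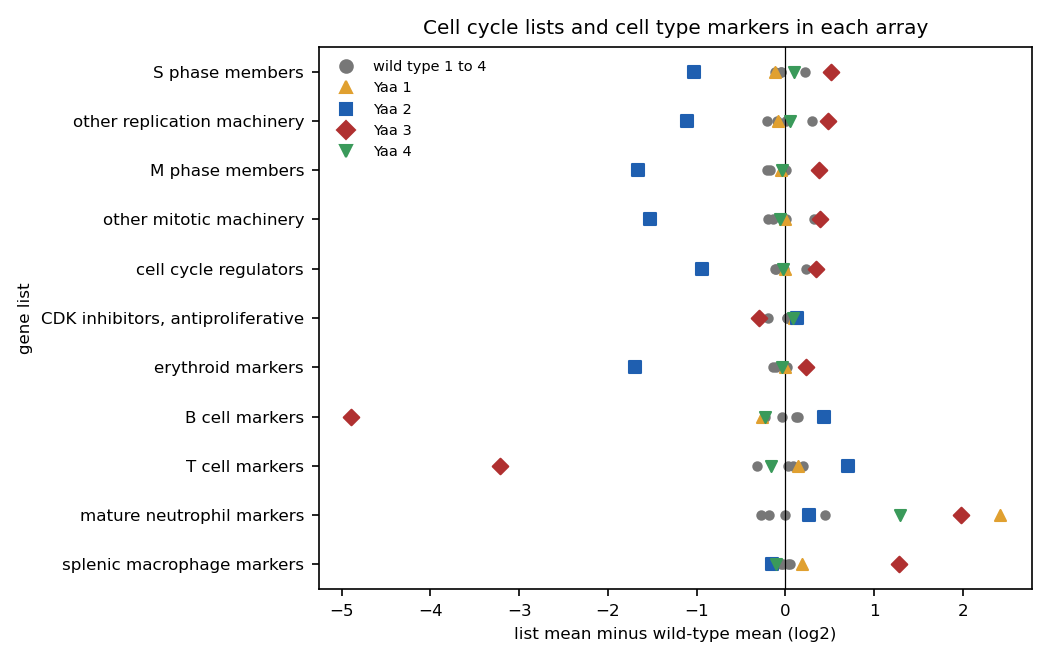
Mean of each gene list minus its wild-type mean (horizontal axis, log2) in the 4 wild-type arrays (grey) and in Yaa 1 to 4 (coloured symbols), one list per row. In Yaa 2 the S and M phase genes, the other replication and mitotic genes, the regulators and the erythroid markers are low, while B and T cell markers are high.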

How the data were processed

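RNA of 4 wild-type and 4 Yaa spleen samples was measured on 1 Affymetrix array each. The values the authors deposited are intensities, MAS5 signals on a linear scale with 1 per probe set, per the submitters' processing notes. The sources used here do not give its version, its target level or any later steps. Depth has no meaning for arrays, and their number, 4 per group, limits the precision. Genes were named through the platform annotation, in which 34945 of 45101 probe sets have 1 symbol, 932 several and 9160 none, with 64 control probe sets left out.

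The trimmed mean signals differed by up to 32.1% from their median, so the signals were quantile normalized, 16 was added and log2 was taken. Probe sets whose mean lay above the median were kept (22518), and limma (3.58.1, R 4.3.3) fitted both groups with lmFit and eBayes with a trend, with Benjamini-Hochberg adjustment over all 22518 at 0.05. Every adjusted p in the text is limma's. Where 1 array was left out, normalized values and tested probe sets were kept. Unadjusted p counts use 0.05. The steps were also tested on simulated data.

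One probe set stood for a gene, the tested one with the highest mean. Values in every array are given for the member with the highest mean and that with the smallest p in each role and for the 6 smallest p of all members, and of each pathway list for up to 4 genes with the smallest p the difference is given. The members, lists and tests were chosen with earlier results of these data known. No 2 arrays held identical values, and correlations between arrays ran from 0.81 to 0.987. Samples were grouped by their titles and source labels. Alternatives were the deposited scaling, median centring, other added constants and filters, eBayes without a trend, array weights, the replicate number as a block and leaving out arrays.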

Additional observations from a re-analysis of the deposited data

Results flagged for a closer look

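Within each group of 4 arrays, a sample was singled out where its gap to the nearest other array exceeded Dixon's critical value as a share of the group's range. Of 158 groups of values tested 18 had such a sample, where chance gives about 1 in 20, and the groups share arrays and genes. Of the 18, 8 were Yaa 2, 4 were Yaa 3 and 4 were wild type 1. All values are log2 signals.

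Yaa 2 stood below the other Yaa arrays for 5 members: Aurkb at 7.68, Birc5 at 10, Bub1 at 7.93, Kif11 at 7.73 and Nusap1 at 9.66. It also did so for the regulators Rbl1, at 7.80, and Tfdp2, at 9.51, and for the mean of the erythroid markers, at 10.24.

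Yaa 3 stood below the other Yaa arrays for the mean of the B cell markers, at 5.53, of the plasma cell markers, at 6.63, and of the CDK inhibitor list, at 9.91. It stood above them for the megakaryocyte markers, at 7.33.

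Wild type 1 stood above the other wild-type arrays for Mcm5, at 11.91, and for the mean of the S phase genes of synthesis and entry, at 11.16. It stood apart for Rbl2, at 8.25, and below the others for Cdkn1a, at 6.60. Wild type 3 was highest for Pttg1, at 11.73, and wild type 4 for the megakaryocyte markers, at 7.37.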

How the results depend on the processing

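limma called 1 probe set of all tested, 143 with array weights, 103 without Yaa 2 and Yaa 3 together, and 0 with log2(signal + 4), 0 over the 75th percentile of mean signal and 0 with the replicate block; leaving out 1 array gave 1 to 31. No member was called in any of these. Member probe sets at an unadjusted p under 0.05 numbered 3 as deposited, 2 after median centring, 2 with no filter and 0 over the 75th percentile. They numbered 0 with array weights, 2 without Yaa 2 and Yaa 3, 1 with the replicate block and 1 to 4 with 1 array left out. Of all tested probe sets, 11.3% reached that level with array weights and 8.83% without Yaa 2 and Yaa 3. The share was 9.13% without Yaa 2 alone and 6.93% without Yaa 3 alone. Shares for the other settings are not given, and the probe sets tested change with the scaling and the filter. Same-numbered samples did not deviate together (correlations from -0.37 to 0.016), so the numbers were not used as pairs.

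Differences of these genes (log2) turned sign without Yaa 2 and Yaa 3 together: Birc5 0.0011, Bub1 0.0882, Bub1b 0.0699, Cdca8 0.0203, Cenpe 0.07, Cks2 0.0167, Hmmr 0.0594, Kif11 0.0553, Mcm2 0.11, Mcm3 0.0526, Mcm4 0.13, Mcm5 0.0845, Top2a 0.15, Tpx2 0.12. With array weights these did: Bub1 0.0391, Bub1b 0.0708, Cenpe 0.0763, Hmmr 0.0909, Mcm2 0.0469, Mcm3 0.0219, Mcm4 0.0767, Mcm5 0.0227, Top2a 0.14, Tpx2 0.12. As deposited these did: Mcm6 -0.0401, Tyms -0.0709, Ccng1 -0.0762. With 1 array left out, the lowest and highest differences of genes that turned sign were Birc5 -0.57 and 0.0877, Bub1 -0.49 and 0.18, Bub1b -0.52 and 0.25, Ccna2 -0.69 and 0.0038, Ccnb2 -0.65 and 0.10, Cdc20 -0.58 and 0.0418, Cdc6 -0.55 and 0.10, Cdca8 -0.47 and 0.16, Cenpe -0.55 and 0.20, Cks2 -0.33 and 0.10, Hmmr -0.61 and 0.23, Kif11 -0.52 and 0.12, Kif20a -0.57 and 0.17, Kif23 -0.52 and 0.10, Mad2l1 -0.46 and 0.11, Mcm2 -0.26 and 0.25, Mcm3 -0.29 and 0.23, Mcm4 -0.28 and 0.23, Mcm5 -0.30 and 0.22, Mcm6 -0.10 and 0.32, Mcm7 -0.40 and 0.0455, Mki67 -0.41 and 0.0617, Nusap1 -0.59 and 0.0434, Pcna -0.26 and 0.0114, Rrm1 -0.51 and 0.0943, Rrm2 -0.42 and 0.0909, Top2a -0.27 and 0.26, Tpx2 -0.61 and 0.26, Ttk -0.66 and 0.27, Tyms -0.20 and 0.47, Prim1 -0.56 and 0.0163. Of the 37 members, 28 turned sign without Yaa 2. Without Yaa 3 alone 2 did, Mcm6 and Tyms, and without wild type 1 alone 3 did, Mcm2, Mcm3 and Top2a. Prim1 turned sign without Yaa 2. Why these arrays differed was not tested.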
